A study of Mus musculus with 2 samples.

Results

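The microRNAs miR-124 and miR-9 are each encoded at several places in the mouse genome, and the 6 gene rows described here hold the reads that were assigned to those places in embryonic hindbrain. Members were chosen by gene symbol: Mir124a-1, Mir124a-2, Mir124a-3, Mir9-2, Mir9-3, and the row Gm25641, whose opposite strand carries Mir9-1. They are 6 of the 1973 gene rows measured, 3 for miR-124 and 3 for miR-9. Hindbrains of healthy B6NCrl mouse embryos at embryonic day 15.5, male and female pooled, gave 2 libraries of RNA with a size range below 30 (no unit is given). Replicate 2 pooled 62 embryos and replicate 1 pooled 78. The series has 1 group, with no treatment, other age or other tissue, so the design allows only a comparison of the 2 biological replicates, together with the level of each locus.

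A microRNA gene is transcribed as part of a longer RNA, from which a hairpin is cut, and each side (arm) of the hairpin can give a mature microRNA that guides the silencing of messenger RNAs. Target choice rests mainly on the seed, bases 2 to 8 of the mature sequence. miR-124 is a hallmark microRNA of neurons, where it represses many genes of non-neuronal cells. miR-9 is made in neural progenitors and young neurons and is known for restraining progenitor genes, with both of its arms described as active in the nervous system. Where several genes make the same mature sequence, a read of that sequence cannot be traced to its gene.

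Both mature arms are printed first because their identity across the 3 miR-9 genes sets what a read can show. The mature sequences below are those of RefSeq on build GRCm38.p6, with the seed in capitals. Of the 6 members, 3 had a sequence in that table, all of miR-9.
miR-9-5p: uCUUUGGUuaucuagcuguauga
miR-9-3p: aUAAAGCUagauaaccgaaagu
The same 23-base 5p sequence and the same 22-base 3p sequence are annotated in each of the 3 miR-9 genes. No other mature sequence in the table has either seed.

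The 3 hairpins are shown to compare what lies outside those arms, 5′ to 3′ on the plus strand, with both mature arms in capitals. Mir9-3 lies on chromosome 7 from 79505264 to 79505353, Mir9-1 on chromosome 3 from 88215598 to 88215686, and Mir9-2 on chromosome 13 from 83738814 to 83738885.
Mir9-3: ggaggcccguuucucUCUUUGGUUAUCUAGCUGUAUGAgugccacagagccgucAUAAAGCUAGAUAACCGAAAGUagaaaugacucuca
Mir9-1: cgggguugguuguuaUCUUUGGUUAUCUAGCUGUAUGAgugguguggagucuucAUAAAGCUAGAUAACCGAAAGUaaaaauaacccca
Mir9-2: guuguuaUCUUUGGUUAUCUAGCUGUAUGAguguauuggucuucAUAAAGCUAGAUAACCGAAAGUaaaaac

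By identity of aligned bases, Mir9-1 and Mir9-2 were the closest pair, with 69 identical and 3 differing bases in a global alignment (95.8%). Mir9-3 was further from both, with 81.8% identity to Mir9-1 and 86.1% to Mir9-2. Gap positions are left out of these percentages. They numbered 17 for Mir9-1 with Mir9-2, 3 for Mir9-1 with Mir9-3 and 18 for Mir9-2 with Mir9-3. Around the 5p arm, Mir9-1 and Mir9-2 share 33 bases, 7 of them before the arm and 3 after it. Mir9-3 shares 26 bases with either of them there, 0 before the arm and 3 after it. Around the 3p arm, Mir9-1 and Mir9-2 again share 33 bases, whereas Mir9-3 shares 25 with either, 2 before the arm and 1 after it.

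Trimmed microRNA reads often start or end a few bases from the annotated arm. All sequences that start and end within 3 bases of an annotated arm were therefore listed, 98 for each miR-9 gene, and looked up in all RefSeq mouse hairpins at other places. For Mir9-3, 40 of the 98 were found in that hairpin alone (40.8%), 21 of 49 for the 5p arm and 19 of 49 for the 3p arm. For Mir9-1 and Mir9-2, 0 of 98 were found in one hairpin alone. The annotated mature sequences themselves were in all 3 hairpins. Of the 7 forms of the 5p arm that keep the annotated start, 0 were particular to the Mir9-3 hairpin, against 2 of 7 for the 3p arm.

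**Figure D1:**
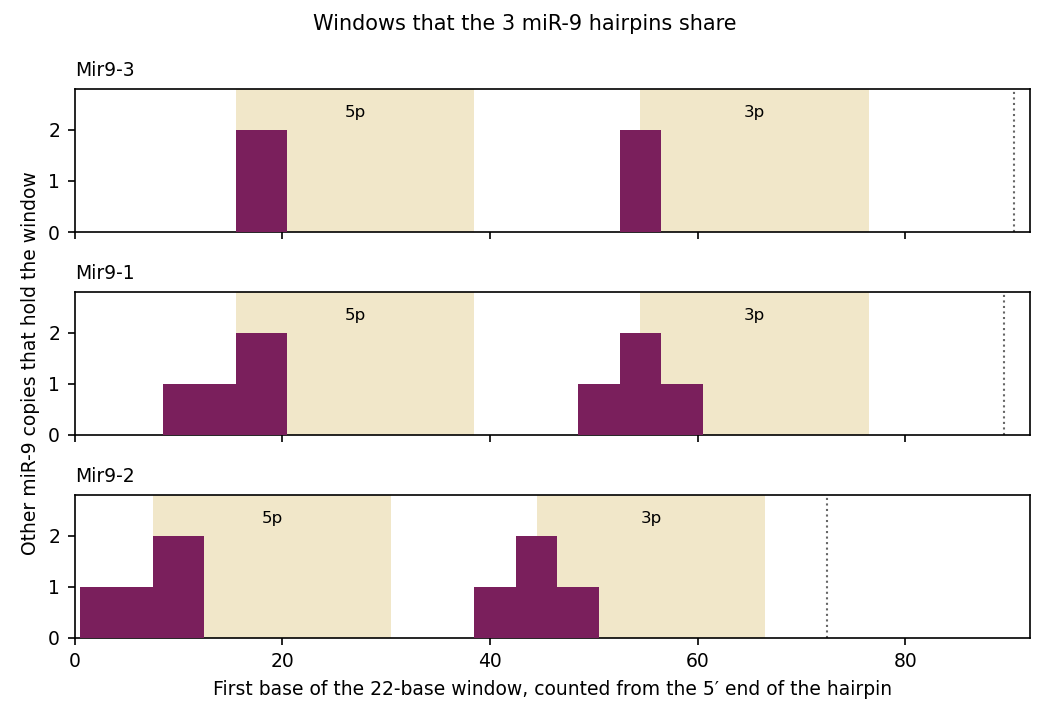
Number of the other miR-9 hairpins (0 to 2) that hold each window of 22 bases, by the position of the window's first base in the hairpin, for Mir9-3, Mir9-1 and Mir9-2. Shading marks the annotated arms and the dotted line the end of the hairpin. In each hairpin 9 windows are in both other copies, and a further 15 windows are shared by Mir9-1 and Mir9-2, while Mir9-3 has no window shared with 1 copy only.

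In a lookup by windows of 22 bases, Mir9-3 again had the most sequence of its own. Of 69 windows in Mir9-3, 60 were in neither of the other copies. This was so for 44 of 68 windows in Mir9-1 and 27 of 51 in Mir9-2. None of the windows of the 3 hairpins was found in another RefSeq hairpin family.

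In replicate 2 the library held 10507754 reads, of which 4839647 were assigned to the own strand of a gene, against 8327917 and 3937840 in replicate 1. Reads placed at several loci are listed in a row of their own and belong to no gene. That row held 3596192 reads in replicate 2 and 2947397 in replicate 1, or 34.2% and 35.4% of all reads. Levels are given as CPM, the usual scaling to a common library total, taken here over reads on the genes' own strand. They are not divided by length, since a read of a mature microRNA covers about 1 arm whatever the length of the row (here 68 to 109 bases). Which part of a row its reads covered is not given by the counts. As a check of the tissue, 6 of 6 listed neural genes had reads, with a sum of 33028 CPM in replicate 2 and 31948 CPM in replicate 1. Most of that sum came from Mir149 (mean 20337 CPM) and Mir137 (8360 CPM), while Mir218-1 stood at 24.6 CPM. The Hox cluster list of 6 genes, which marks hindbrain and spinal levels, summed to 132296 and 92090 CPM. The oligodendrocyte list of 3 genes summed to 2720 and 2610 CPM. Lists of non-neural cells had reads too, with endothelial Mir126a at 22600 and 25702 CPM and the mesenchyme and smooth muscle list at 5913 and 6623 CPM. Of 6 striated muscle genes 5 were found, at 23.3 and 27.2 CPM in sum, all of it from Mir206. Mir133b, which shares no whole mature sequence in the RefSeq table, was at 0 reads in both libraries. So were Mir1a-1 and both Mir133a genes, which belong to repeated microRNAs. For none of these genes does a 0 show a low level, since copies outside that table were not searched.

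The 6 loci together held 3347 reads in replicate 2 and 2099 in replicate 1, or 0.0692% and 0.0533% of the reads on the genes' own strand. The row of reads placed at several loci held 1074 reads for each of theirs in replicate 2 and 1404 in replicate 1. How many of those came from miR-124 or miR-9 was not measured. The values below are therefore the reads placed at 1 locus, not the abundance of the microRNAs, and a low value does not show that a locus was little expressed.

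Among the miR-9 loci, Mir9-3 led. Its row (ENSMUSG00000093238.1), in an intron of the long noncoding RNA gene Mir9-3hg, held 3125 reads in replicate 2 and 1991 in replicate 1. These are 646 CPM (95% exact Poisson interval 623 to 669) and 506 CPM (484 to 528), with a mean of 576 ± 99.1 CPM (SD, n = 2). By mean CPM it ranked 116th of the 1973 rows. The intervals of the 2 libraries did not overlap. The measured genes just above and below it in level were Mir340 (591 ± 2.70 CPM) and Mirlet7c-1 (561 ± 29.2 CPM), both of which differed from Mir9-3 by less than the SD of Mir9-3.

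Mir9-1 came next, read on the strand opposite to Gm25641 (ENSMUSG00000092876.1; chromosome 3, 88215589 to 88215696, minus strand). On the plus strand, where Mir9-1 lies in an intron of the long noncoding RNA gene Gm3764, it held 164 reads in replicate 2 and 72 in replicate 1. These are 33.9 CPM (28.9 to 39.5) and 18.3 CPM (14.3 to 23.0), with a mean of 26.1 ± 11.0 CPM (SD, n = 2). The strand of Gm25641 itself, on which RefSeq annotates miR-9b, held 0 reads in both libraries. Since a count of 0 allows 3 reads, counting error alone leaves room for up to 0.620 CPM of singly placed reads there in replicate 2 and 0.762 CPM in replicate 1. Sequence that the miR-9 copies share on the plus strand is shared on the minus strand too, so this 0 does not show a low level of miR-9b. Mir200c (26.4 ± 8.90 CPM) and Mir18b (25.7 ± 5.45 CPM) stood nearest to Mir9-1 in level.

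Mir9-2 (ENSMUSG00000065424.1), which overlaps an annotated exon of the long noncoding RNA gene C130071C03Rik, held 17 reads in replicate 2 and 6 in replicate 1. Its level was 3.51 CPM (2.05 to 5.62) and 1.52 CPM (0.559 to 3.32), a mean of 2.52 ± 1.41 CPM (SD, n = 2). The libraries' intervals overlapped. Mir344e (2.60 ± 1.35 CPM) and Mir1231 (2.49 ± 0.283 CPM) were its neighbours in level.

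The order of the miR-9 loci was the same in both libraries. Mir9-3 held 94.5% of the reads at the 3 loci in replicate 2 (exact binomial interval 93.7 to 95.3) and 96.2% in replicate 1 (95.3 to 97.0). Mir9-1 held 4.96% (4.25 to 5.76) and 3.48% (2.73 to 4.36), and Mir9-2 held 0.514% (0.300 to 0.822) and 0.290% (0.106 to 0.630). Mir9-3 had 19.1 reads for each read of Mir9-1 in replicate 2 (16.3 to 22.4) and 27.7 in replicate 1 (21.9 to 35.5). Mir9-1 in turn had 9.65 reads for each of Mir9-2 in replicate 2 (5.84 to 17.0) and 12 in replicate 1 (5.25 to 33.8). Divided by row length, Mir9-3, Mir9-1 and Mir9-2 kept this order, with 34.7, 1.52 and 0.236 reads per base in replicate 2 and 22.1, 0.667 and 0.0833 in replicate 1. The Mir9-3 hairpin was also the copy with the most sequence of its own near the arms, and the part that this plays in the order was not tested. For Mir9-1 and Mir9-2, 0 of 98 sequences near an arm were their own, against 40 of 98 for Mir9-3. Exact reads of those forms match more than 1 hairpin. What reads were placed at Mir9-1 or Mir9-2 alone was not determined, so the ratios to Mir9-3 may not compare reads of the same kind.

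The miR-124 loci stood far lower. Mir124a-1 (ENSMUSG00000065597.1; chromosome 14, 64590657 to 64590741, plus strand) overlaps an exon of Mir124a-1hg, the retinal noncoding RNA also called Rncr3. It held 21 reads in replicate 2 and 14 in replicate 1, with a mean of 3.95 ± 0.554 CPM (SD, n = 2). Mir124a-2 (ENSMUSG00000093073.1; chromosome 3, 17795662 to 17795770, plus strand), overlapping an exon of Mir124-2hg, held 11 and 6 reads, with a mean of 1.90 ± 0.530 CPM. Mir124a-3 (ENSMUSG00000065454.1; chromosome 2, 180894040 to 180894107, plus strand) overlaps at its end the first bases of the long noncoding RNA gene Gm27032. It held 9 and 10 reads, with a mean of 2.20 ± 0.481 CPM.

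The 3 miR-124 loci were not separable from each other by their reads, with 1 exception. In replicate 2 Mir124a-1 had 2.33 reads for each read of Mir124a-3 (1.02 to 5.79), an interval above 1. In replicate 1 the same ratio was 1.40 (0.578 to 3.52). All other ratios among the 3 loci had intervals that included 1 in both libraries. Together the 3 loci held 41 reads in replicate 2 and 30 in replicate 1, or 8.47 CPM (6.08 to 11.5) and 7.62 CPM (5.14 to 10.9), so the summed level of the miR-124 loci was 8.05 ± 0.603 CPM (SD, n = 2).

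**Figure D2:**
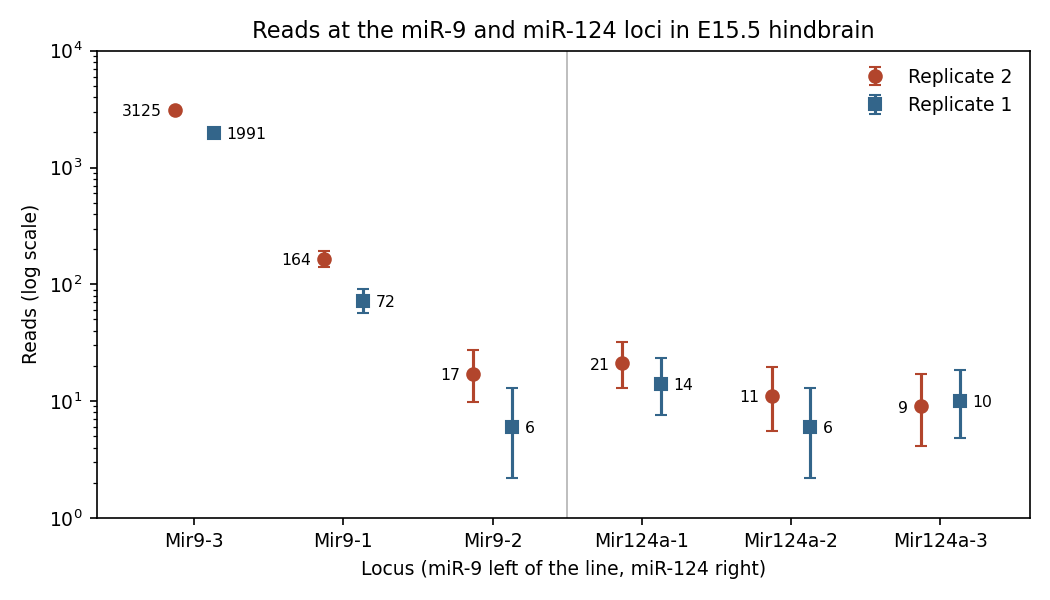
Reads assigned to each miR-9 and miR-124 locus (log axis) in replicate 2 (circles) and replicate 1 (squares), with exact 95% Poisson intervals that cover counting error only. Mir9-3 stands at 3125 and 1991 reads and Mir9-1 at 164 and 72, while the other 4 loci lie between 6 and 21 reads.

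The summed level of the miR-9 loci was 683 CPM (660 to 707) in replicate 2 and 525 CPM (503 to 549) in replicate 1, with a mean of 604 ± 112 CPM (SD, n = 2). Counting only reads placed at 1 locus, the miR-9 loci had 80.6 reads for every miR-124 read in replicate 2 and 69.0 in replicate 1. In order of mean CPM the loci ran Mir9-3, Mir9-1, Mir124a-1, Mir9-2, Mir124a-3 and Mir124a-2. From Mir124a-1 downward, the exact Poisson intervals of neighbours overlapped in both libraries. Mir9-2 had 0.810 reads for each read of Mir124a-1 in replicate 2 (0.401 to 1.61) and 0.429 in replicate 1 (0.135 to 1.19). The genes nearest in level were Mir7655 and Mir3060 for Mir124a-1, Mir491 and Mir215 for Mir124a-2, and Mir1943 and Mir1945 for Mir124a-3. Those 6 genes had means between 1.83 and 4.03 CPM.

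A pair of members have another measured microRNA gene close by on the same strand, both with sequence that the members do not share. Mir3078 lies 443 bases beyond Mir124a-1, within the annotated span of Mir124a-1hg. It held 69 reads in replicate 2 and 47 in replicate 1. This was 3.29 reads for each read of Mir124a-1 in replicate 2 (1.99 to 5.64) and 3.36 in replicate 1 (1.82 to 6.6), so Mir3078 was the higher row in both libraries. Mir3093 lies 331 bases before the Gm25641 row, in the span of Gm3764. It held 125 reads in replicate 2 and 1 read fewer in replicate 1.

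The 2 libraries were then compared gene by gene, to see which loci differed between pools by more than counting error. The test was an exact two-sided conditional binomial test of the 2 counts after TMM scaling in edgeR, run on the 427 genes that reached 10 reads in either library, with Benjamini-Hochberg adjustment over all of them. It compares 2 libraries, not conditions. At an adjusted p of 0.05, 154 of the tested genes passed (36.1%). Replicate 2 was the higher library for 66 genes (15.5%) and the lower one for 88 (20.6%). All 6 loci met the count minimum, Mir9-2 and Mir124a-2 through replicate 2 alone and Mir124a-3 through replicate 1 alone. Of the 6, 2 passed, both of them miR-9 loci and both higher in replicate 2. The share of the loci that passed is close to that of all genes and is not by itself a result about them.

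Mir9-3 was higher in replicate 2 by a log2 ratio of 0.34 (95% exact interval 0.25 to 0.42; adjusted p = 2.6e-15 by the exact binomial test). Mir9-1 was higher by 0.87 (0.46 to 1.29; adjusted p = 6.9e-05 by the same exact test). The log2 ratio of Mir9-2 was 1.19 (-0.22 to 2.82; adjusted p = 0.19, exact binomial test), which did not pass at 17 and 6 reads. For the miR-124 loci the log2 ratio was 0.27 (-0.77 to 1.36) for Mir124a-1, 0.56 (-1.0 to 2.28) for Mir124a-2 and -0.47 (-1.94 to 0.99) for Mir124a-3, none of which passed. Those intervals reach beyond a 2-fold difference in at least 1 direction, and in that direction such a difference was not excluded at this depth. When a coefficient of variation of 0.1 was assumed for every gene, close to the biological coefficient of 10.6% that edgeR estimated over all tested genes, edgeR's exact test called 0 of the 6 loci. At that setting 1 of the 6 had an unadjusted p under 0.05, and the adjusted p was 0.79 for Mir9-3 and 0.14 for Mir9-1 by edgeR's exact test. For Mir9-3 and Mir9-1 the difference between the pools therefore exceeded counting error, and it did not exceed an assumed 10% spread between samples at the adjusted threshold. The coefficient that edgeR estimated over all tested genes was 10.6%. It came from these same 2 libraries, so it is no independent guide to that setting, and its biological and technical parts cannot be told apart.

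**Figure D3:**
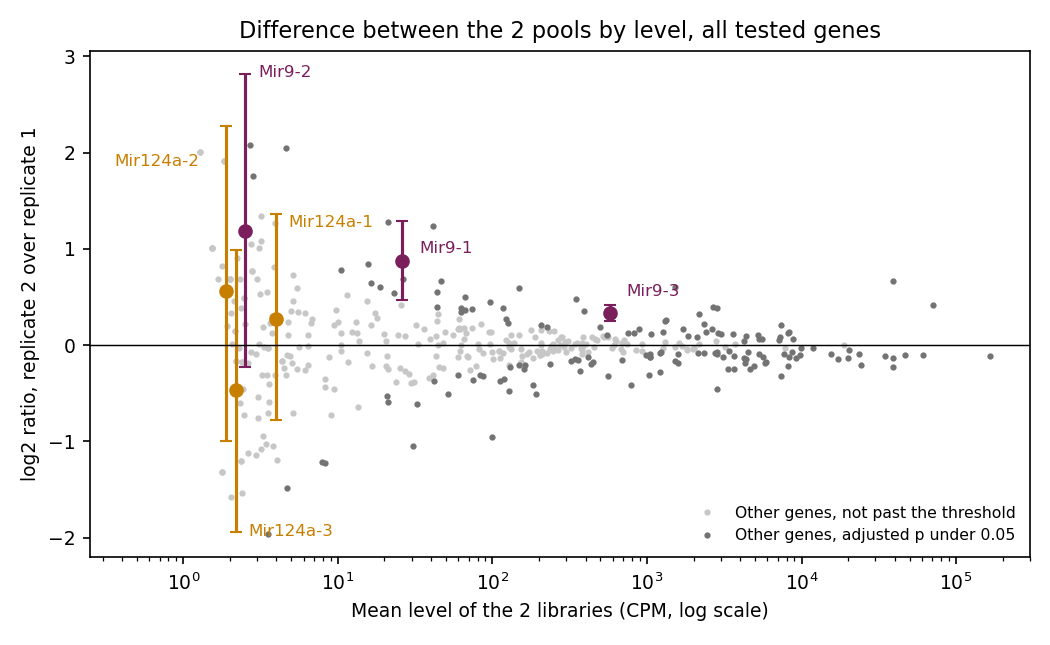
log2 ratio of replicate 2 over replicate 1 against mean CPM (log axis) for the tested genes, with the miR-9 loci in purple and the miR-124 loci in orange. Bars are exact 95% intervals of counting error, dark grey marks other genes past the adjusted threshold, and 1 gene with no read in 1 library is not drawn. The intervals of Mir9-3 (0.25 to 0.42) and Mir9-1 (0.46 to 1.29) lie above 0 and those of the other 4 loci cross it.

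Among genes of similar depth, both miR-9 loci stood near the upper edge. Of 56 other genes whose reads over both libraries lay within 2-fold of those of Mir9-3, 2 had a higher log2 ratio and 8 were called higher in replicate 2. Of 53 such genes for Mir9-1, 2 had a higher ratio and 10 were called higher. Mir3093, the close neighbour of Mir9-1, did not move with it: its log2 ratio was -0.30 (-0.67 to 0.07; adjusted p = 0.20, exact binomial test). Mir9-1 had 1.31 reads for each read of Mir3093 in replicate 2 (1.03 to 1.67) and 0.581 in replicate 1 (0.428 to 0.783). These intervals, which cover counting error only, do not overlap. Mir3078, the neighbour of Mir124a-1, had a log2 ratio of 0.24 (-0.32 to 0.81) and did not pass.

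Marker lists differed between the same libraries. The counts of their genes past the test stand against 15.5% higher and 20.6% lower over all tested genes. Of the neural list 3 of 6 genes were higher in replicate 2 and 1 lower, and of the oligodendrocyte list 1 of 3 was higher and 1 lower. Summed levels were higher in replicate 2 for the choroid plexus and ciliated cell list (7169 CPM in replicate 2, 5610 CPM in replicate 1; 4 of 5 tested genes higher) and for the Hox list (4 of 5 tested genes higher). The mesenchyme and smooth muscle list was lower (5913 and 6623 CPM; 3 of 5 tested genes lower, 0 higher), as were the blood list (356 and 480 CPM; 3 of 4 lower) and endothelial Mir126a (22600 and 25702 CPM). Liver Mir122 was at 57.0 and 35.6 CPM. The part of these differences in the ratios of Mir9-3 and Mir9-1 was not tested. In bulk tissue, fewer cells of a type and less RNA per cell cannot be told apart.

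The miR-9 loci were set beside other microRNA genes whose mature sequences recur. The comparison covers 858 measured genes that were matched to a RefSeq hairpin with a mature sequence. Of these, 31 share every arm with another gene, as the miR-9 genes do, 52 share some arm and 775 share none. In the first class 22 of 31 genes (71.0%) had under 10 reads in both libraries and 21 had none at all. This was so for 13 of 52 genes (25%) that share some arm and for 458 of 775 (59.1%) that share none. The median level was 0 CPM where every arm is shared, 48.4 CPM where some arm is and 0.667 CPM where none is. These are counts of genes, which are not replicates.

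In 22 genes, no sequence within 3 bases of an arm was particular to 1 hairpin, and 19 of these had no read in either library. The 3 that had reads were Mir9-1 and Mir9-2, described above, and Mir199b with 328 reads in replicate 2 and 512 in replicate 1. Of the 74 genes with some such sequences of their own, as Mir9-3 has, 22 (29.7%) had under 10 reads in both libraries. This was so for 452 of 762 (59.3%) of the genes for which all such sequences were their own among the hairpins searched. Mir125b-1 fell in that last class although 1 of its 2 arms is identical in another gene, whose hairpin was not among those searched. Other genes of the class may be alike in this.

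**Figure D4:**
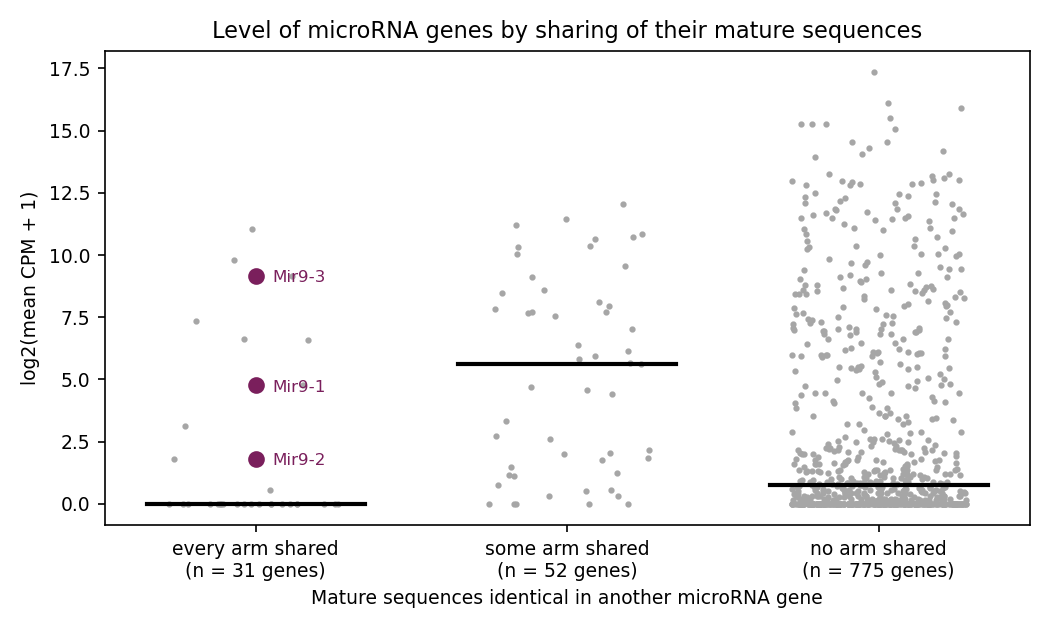
Level of 858 microRNA genes as log2(mean CPM + 1), each point 1 gene, by whether every, some or no mature sequence is identical in another gene. Black bars are medians (0, 48.4 and 0.667 CPM before the log), and the 3 miR-9 loci are in purple. They lie above the median of their class, as does any gene of that class with a read.

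Reads placed at 1 locus were often unequal between the genes of repeated microRNAs, and the miR-9 genes were near the unequal end. Genes linked by identical mature sequences, directly or through a further gene, were grouped if matched to a RefSeq hairpin. In 13 groups there were at least 2 such measured genes and at least 1000 reads over both libraries. Their leading gene held between 49.1% and 98.8% of the group's reads, as a mean of the libraries, with a median of 83.8%. The miR-125b genes are not among the 13, because Mir125b-2 was measured but not matched. They were nearly equal, with 8700 reads for Mir125b-2 and 8678 for Mir125b-1 in replicate 2, and 7213 and 7240 in replicate 1. Mir9-3 held 95.4% on this measure, and 3 of the 13 groups were led by a larger share. Near-arm sequences particular to 1 hairpin numbered 74 of 98 for Mir128-1, 63 for Mir181a-1 and 78 for Mir138-1. Mir9-3 had 40 of 98, and Mir9-1 and Mir9-2 had 0. Which arm the reads came from was not determined, so the shares may not compare reads of the same kind. The shares also leave out reads placed at several loci. Of the 6 groups with the most reads at matched genes, those of Mir181a-1 (96.2% in replicate 2 and 95.5% in replicate 1) and Mir219a-2 (91.8% and 90.7%) were the most uneven. Mir16-1 held 84.3% and 85.8%, Mir128-1 63.9% and 64.4%, and Mir138-1 63.0% and 62.8%. In the remaining group, Mirlet7f-2 was the measured gene and the other copy was not analysed here. Groups of the other neural microRNAs were led by Mir218-2 (82.4% and 85.3%), Mir129-2 (67.1% and 70.5%), Mir7-1 (60.7% and 65.2%) and Mir135a-1 (54.3% and 54.7%).

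Against 29 other neural microRNA genes, Mir9-3 stood in the middle in reads and the other 5 loci were low. Of the 29, 15 exceeded Mir9-3 in mean CPM, 28 exceeded Mir9-1 and 29 exceeded Mir124a-1. The highest were Mir149 (20337 ± 297 CPM, SD, n = 2), Mir137 (8360 ± 637 CPM), a regulator of neuronal maturation, and Mir135b (7686 ± 299 CPM), which share no arm with another gene. Median levels were 235 CPM for the 14 genes of the list that share an arm and 1269 CPM for the 13 that share none, and 2 could not be classed. Motor neuron Mir218-1, which shares an arm with Mir218-2, was the lowest at 24.6 ± 1.42 CPM and the single gene of the list below Mir9-1. In the comparison of the pools, 8 of the 29 were higher in replicate 2 and 8 lower, with a median log2 ratio of -0.03, against 15.5% and 20.6% and a median of -0.01 over all tested genes. Mir9-1, at 0.87, and Mir9-3, at 0.34, lay above all 29, the highest of which was Mir212 at 0.26 (-0.04 to 0.56). So did Mir9-2 (1.19), Mir124a-2 (0.56) and Mir124a-1 (0.27), which did not pass the test, while Mir124a-3 was at -0.47.

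**Figure D5:**
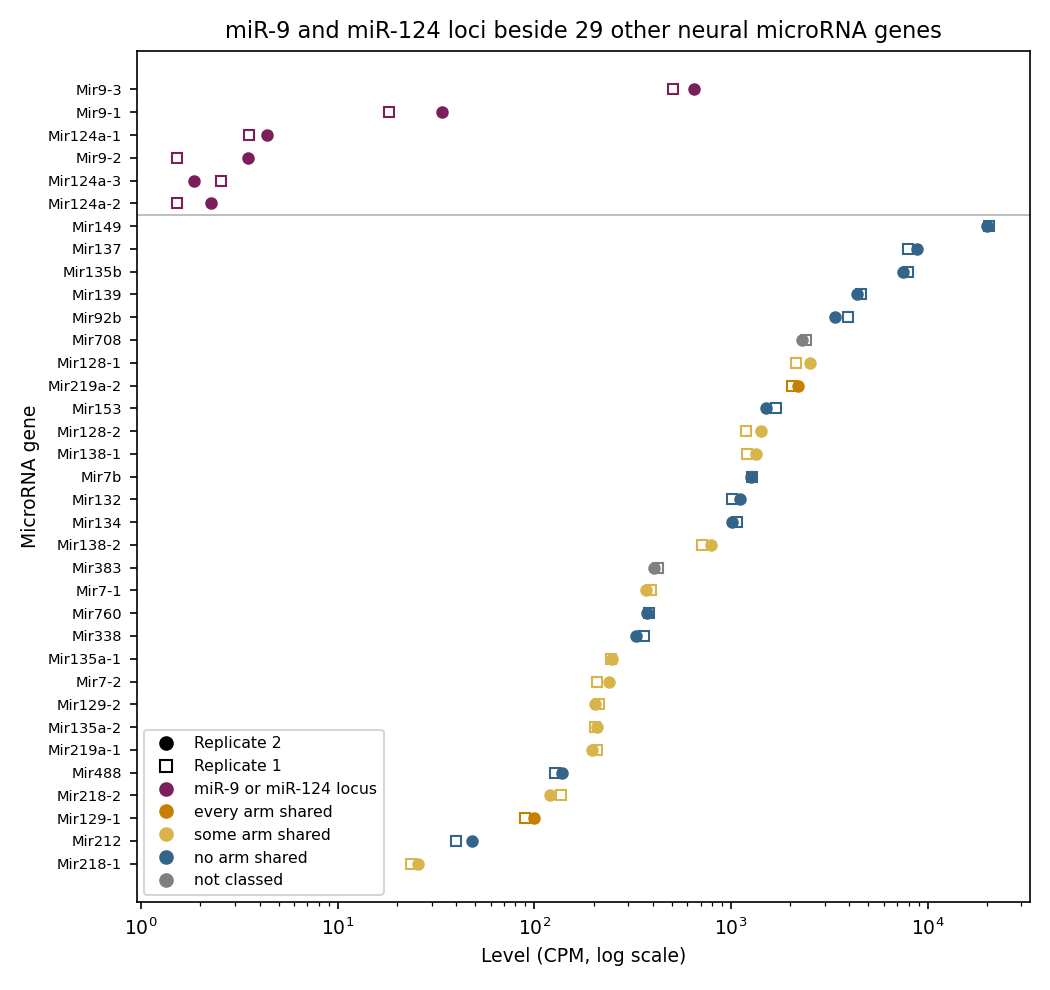
Level in CPM (log axis) of the 6 miR-9 and miR-124 loci (above the line) and of 29 other neural microRNA genes, in replicate 2 (filled circles) and replicate 1 (open squares), coloured by sharing of mature sequences. Mir9-3 lies within the range of the other genes, and the miR-124 loci and Mir9-2 lie below all of them.

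Few of the reads placed at 1 of these loci alone lay on the other strand. Mir9-1, Mir9-2, Mir124a-1 and Mir124a-2 had 0 reads on the strand opposite to the one counted in both libraries, and Mir9-3 had 0 in replicate 2 and 1 in replicate 1. Over all genes, 2.09% of assigned reads in replicate 2 and 2.22% in replicate 1 lay on the opposite strand. Mir124a-3 was the exception among the loci, with 3 opposite reads of 12 in replicate 2 and 5 of 15 in replicate 1.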

How the data were processed

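MicroRNA sequencing covered 2 biological replicates of mouse embryonic hindbrain. The authors deposited raw read counts per gene on mm10, counted over GENCODE M4 genes according to the deposited notes. Which aligner and counter were used is not given in the sources used here. The tables have no column names. The first count column is the sum of the other two in every gene row, and because the second sums to far more than the third, they were read as own-strand and opposite-strand counts. The 4 rows that name no gene (52.96% of all reads in replicate 2 and 51.64% in replicate 1) stayed out of library sizes and tests. Own-strand counts were used, and opposite-strand counts for Gm25641. Symbols and positions came from GENCODE M21 (GRCm38, the build of mm10) by gene identifier, with a symbol for 1894 of 1973. RefSeq hairpins (GRCm38.p6) were matched by symbol and position for 869, and copies outside that table were not searched.

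Tests used edgeR 4.0.16 in R 4.3.3, with DESeq2 1.42.0 size factors as an alternative. Python 3.11.15, scipy 1.17.1 and Biopython 1.88 gave exact intervals and alignments. With 1 library on each side, a quasi-likelihood fit has no residual degrees of freedom, so the exact binomial test was used. It was tried on simulated counts that held counting error only. That check cannot show how the test behaves with the further spread between these pools. Intervals and the limit of 3 reads at a count of 0 cover counting error only, since reads without molecular identifiers are not independent molecules. Per the labels, the replicates are pools of different embryo numbers that carry the same donor identifier. Whether that marks the strain or shared parents is not given, so the spread between them may be partly technical.

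The members and lists were chosen with earlier results of these data known. Genes named in the text are the members, their nearest genes in level, the gene groups of identical mature sequence with the most reads or with a listed neural gene, the listed neural genes, marker lists and measured microRNA genes within 50 kb. Mir199b, and the limits of 1000 reads and 2-fold depth, were chosen after the values were seen. Alternatives were other scalings, count minimums, strands, denominators, assumed coefficients of variation, leaving out a replicate, and other definitions of a shared sequence.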

Additional observations from a re-analysis of the deposited data

Results flagged for a closer look

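Mir124a-3 had 5 reads on the strand opposite to its annotation in replicate 1, above the 3 reads that a count of 0 allows, in a column the comparisons do not use. This was 33.3% of its 15 reads on both strands (exact interval 11.8 to 61.6). Replicate 2 had 3 such reads of 12, or 25% (5.49 to 57.2), which is not above that limit. GENCODE M21 lists no gene on the opposite strand there.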

How the results depend on the processing

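Of 38 recomputed values for single loci, 34 kept direction and side of the threshold. The other 4 were Mir9-3 and Mir9-1 under an assumed coefficient of variation, and no direction reversed. Called genes numbered 154, between 138 and 163 under other scalings, count minimums and strands, but 6 at a coefficient of 0.1 and 0 at 0.2 by edgeR's exact test (33 and 12 at an unadjusted p under 0.05). Called loci numbered 2 under those scalings, minimums and strands, and 0 at either coefficient. The adjusted p of Mir9-1 ranged from 3.7e-05 to 1.0 and that of Mir9-3 from 7.4e-18 to 1.0 over the alternatives of the exact tests. The summed miR-9 level was 282 CPM over all reads and 342 CPM over assigned plus multiply placed reads, and without 1 replicate it was 525 to 683 CPM. The summed miR-124 level was 3.75 and 4.55 CPM on those denominators, 8.80 with both strands, and 7.62 to 8.47 without 1 replicate. The larger denominators lower these values by construction. The share of genes under 10 reads in both libraries was 42.2% where any mature sequence is shared and 59.1% where none is, a difference of -16.9 percentage points, and -17.3 to -15.7 without 1 replicate. It was -1.32 for genes with no read, 24.6 where sharing meant a stretch of at least 20 bases (90.0% of 929 genes against 65.4% of 965), and 11.9 where every mature sequence is shared, a definition added after seeing the data. The direction of that difference thus depends on the definition, and the cause was not tested. No paired analysis was possible because the series has 1 group. Depth limits the miR-124 loci and Mir9-2, at 6 to 21 reads each.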
